A study of Mus musculus with 3 samples.

Results

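Imprinted genes that govern growth were followed in blood progenitors of the newborn mouse liver. The 10 genes were Meg3, H19, Igf2, Dlk1, Mest, Peg3, Plagl1, Ndn, Grb10 and Cdkn1c, taken by symbol from the 32285 genes counted in every library, and all 10 were found. Their raw counts of unique molecular identifiers (UMIs, each standing for 1 captured RNA molecule) were summed per library and per cell class named from markers, and scaled to 1000000 UMIs of that class (CPM).

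CITE-seq, which reads RNA and 10 surface antibody tags from the same cells, had been run on Lin-KIT+ progenitors (no mature lineage markers, stem cell factor receptor present) of P0 liver, postnatal day 0. Each of the 3 groups had 1 library: Control mice, mice with the leukemia fusion MLL::ENL, and mice that carried the fusion and lacked Skida1. The labels name no promoter or Cre for the fusion or the deletion, no strain and no number of animals pooled. Differences between groups therefore have no replicate check, and no test or p-value stands beside them. Brackets hold 95% intervals, from the Poisson distribution for CPM, by conditioning on the summed count for a ratio of CPM (binomial) and by the Clopper-Pearson method for a share, all exact; they cover counting error only, not differences between animals or preparations.

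An imprinted gene is read mainly from the copy inherited from 1 parent, and the choice is kept by DNA methylation set in the germ line. Many imprinted genes set fetal growth: those read from the father's copy often promote it, and those read from the mother's copy often restrain it. In blood, several of them are known for high RNA levels in fetal and long-term stem cells and for links to stem cell quiescence. The counts here do not separate the parental copies, so only total RNA is described.

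Several members sit in pairs on the chromosomes (GRCm38.p6, RefSeq). Dlk1 (ENSMUSG00000040856) lies on chromosome 12 from 109452485 to 109463336, and Meg3 (ENSMUSG00000021268) on chromosome 12 from 109540996 to 109571729, with 77659 bases between them. H19 (ENSMUSG00000000031; chromosome 7, 142575530 to 142578146) and Igf2 (ENSMUSG00000048583; chromosome 7, 142650768 to 142666816) are separated by 72621 bases. Cdkn1c (ENSMUSG00000037664) is on the same chromosome from 143458339 to 143461059, Ndn (ENSMUSG00000033585) from 62348277 to 62349928 and Peg3 (ENSMUSG00000002265) from 6703892 to 6730462. Grb10 (ENSMUSG00000020176) spans 11930499 to 12037428 of chromosome 11, Plagl1 (ENSMUSG00000019817) 13090832 to 13131694 of chromosome 10, and Mest (ENSMUSG00000051855) 30733506 to 30748466 of chromosome 6. Genes of the count tables overlap 4 of these spans (Rtl1 in Meg3, Igf2os in Igf2, Copg2 at Mest and Gm32061 at Ndn); the sources do not say how reads of overlapping genes were assigned.

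Promoter windows of RefSeq (250 bases before to 50 after a gene's start) matched 8 of the 10 members, in 15 windows. Meg3 is shown because, of the measured members, it had the largest ratio between MLL::ENL and Control in stem and progenitor cells, and the stretch of Peg3 because it was the other member window with the same motif. The capitals mark TGACGTCA, the cAMP response element, known from studies of the human MEG3 promoter; in Meg3 it lies at positions -57 to -50 from the start, and in Peg3 at -178 to -171. The first line is the plus strand of chr12:109540746-109540995, and the second the minus strand of chr7:6730579-6730608, both read 5′ to 3′ in the direction of the gene.
Meg3: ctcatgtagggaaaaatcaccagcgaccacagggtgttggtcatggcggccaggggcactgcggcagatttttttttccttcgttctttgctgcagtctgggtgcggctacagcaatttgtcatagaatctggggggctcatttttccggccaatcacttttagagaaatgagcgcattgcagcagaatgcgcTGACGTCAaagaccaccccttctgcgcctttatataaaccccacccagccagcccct
Peg3: actgactccgtTGACGTCAactccgtgcct
TGACGTCA occurred in 1.79% of all 32851 windows on either strand. Of the 8 letter strings searched, TGCCGC is the site of the imprint-keeping zinc finger protein ZFP57. It was in 6 of the 15 member windows, from 5 members (Grb10, Igf2, Meg3, Mest and Plagl1), and in 11.6% of all windows. Some members have several windows, and those can overlap. An ETS site (CCGGAA, 14.9% of windows) was found in Meg3. The full NRF1 site (0.971% of windows) and a GATA site (AGATAA, 11.2%) were in no member window. A match describes these letters only, and no binding was measured.

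The kept cells numbered 5394 in Control, 10807 in MLL::ENL and 9344 with Skida1 deleted, with medians of 28031.5, 13918 and 17246.5 UMIs per cell. Skida1 itself had 19, 326 and 42 UMIs in the stem and progenitor class, or 0.942, 16.4 and 1.82 CPM, lowest where the fusion is absent and low where the gene was deleted; the labels do not say which part of it was deleted. Xist was at 952, 1736 and 3.22 CPM and the Y-linked Ddx3y at 0, 0 and 77.0 CPM in that class, so sex differs between the Skida1-deleted library and the other libraries, and the deletion and sex cannot be told apart. Kit was at 161, 206 and 273 CPM there. The libraries shared 13 to 22 cell barcodes in pairs, at most 0.278% of a library's cells.

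The class nearest to hematopoietic stem and progenitor cells (HSPC-like) held 1212 Control, 1722 MLL::ENL and 2285 Skida1-deleted cells. Clusters were made without any imprinted gene among the variable genes. Clusters 12 and 18 held most of the Control cells and clusters 3, 5 and 10 those of both fusion libraries, so the class is not the same mixture of cells in each. A minimum of 100 cells per library left 4 further classes: granulocyte progenitor-like, megakaryocyte-like, erythroid-like and basophil-mast-like cells. Erythroid-like cells of Control lay mostly in clusters 8, 9, 13 and 20 and those of both fusion libraries in clusters 0, 1, 2, 4 and 6. A member counted as measured with at least 5 CPM in either library and 20 UMIs over both, and as higher or lower at 1.5-fold or more.

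In HSPC-like cells the noncoding RNA Meg3 was higher with the fusion, and its chromosomal neighbour Dlk1 was lower. Of the 6 members measured, 1 was higher (Meg3) and 1 lower (Dlk1) in MLL::ENL than in Control, and 4 lay within 1.5-fold (H19, Ndn, Grb10 and Cdkn1c). Over the 9847 genes measured the same way, 7.89% were higher and 15.7% lower, so 1 of 6 in each direction is near the background. The members' median log2 ratio of (CPM + 1) was 0.03, against -0.11 over all genes measured. Between Skida1-deleted and MLL::ENL no measured member differed by 1.5-fold, where 1.71% of 9582 genes were higher and 1.29% lower; the members' median log2 ratio was -0.31, against -0.02. Against the same Control library, the Skida1-deleted library had 1 member higher (Meg3) and 2 lower (Dlk1 and Grb10), where 9.6% of 9857 genes were higher and 19.1% lower; the medians were -0.19 and -0.14. The contrasts share libraries and are not independent of each other.

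**Figure D1:**
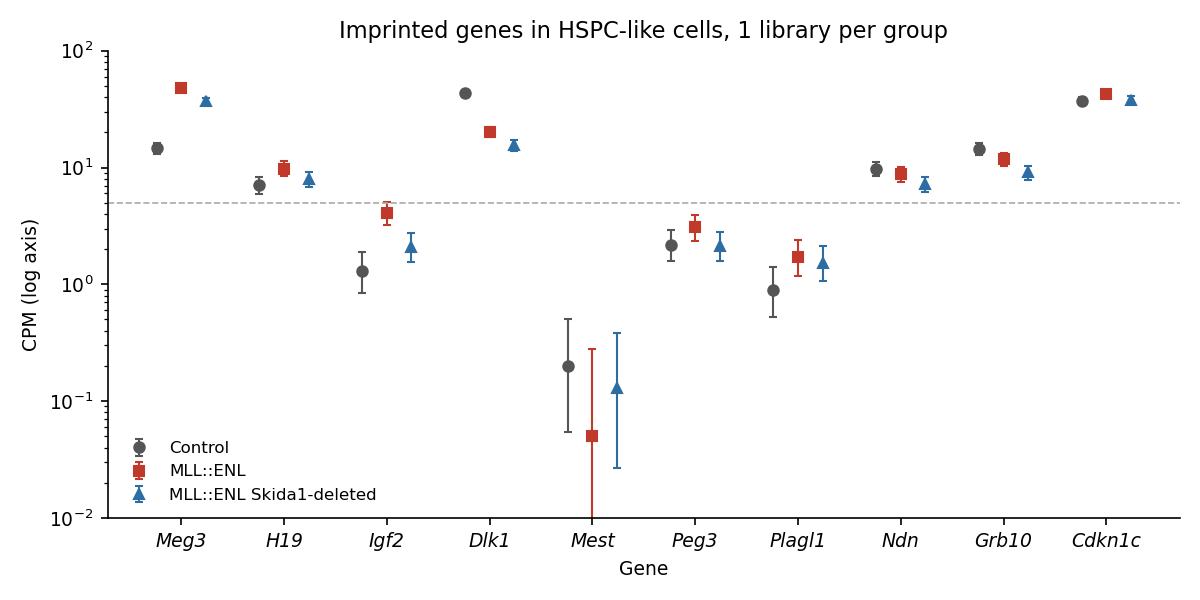
Levels of the 10 genes in HSPC-like cells of the 3 libraries, in CPM on a log axis; bars are 95% Poisson intervals (counting error only, cut at the lower edge for Mest) and the dashed line marks 5 CPM. Meg3 is at 14.6 CPM in Control and 47.5 in MLL::ENL, Dlk1 at 43.2 and 20.1, and Igf2, Mest, Peg3 and Plagl1 lie below the line in every library.

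Of the genes read from the mother's copy, Meg3 and H19 are long noncoding RNAs. Meg3 had 294 UMIs in Control (14.6 CPM [12.96–16.3]), 942 in MLL::ENL (47.5 CPM [44.5–50.7]) and 856 with Skida1 deleted (37.2 CPM [34.7–39.8]). Both fusion libraries lay above Control with no overlap of the intervals, at 3.26-fold for MLL::ENL [2.86–3.73] and 2.55-fold for the Skida1-deleted library [2.23–2.92]. With cells thinned to 3000 UMIs each, 46 of 1205 Control cells (3.82% [2.81–5.06]), 166 of 1720 MLL::ENL cells (9.65% [8.30–11.1]) and 187 of 2263 Skida1-deleted cells (8.26% [7.16–9.47]) held a Meg3 UMI; unthinned, the shares were 8.91%, 13.01% and 10.5%. Thinning left out 7, 2 and 22 cells below that depth. Among erythroid-like cells thinned alike, the shares were 0.0587%, 0.280% and 0.0458%.

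The Meg3 RNA sat in few cells. In Control 22 of the 1212 HSPC-like cells held 50% or more of its UMIs, 46 of 1722 in MLL::ENL and 50 of 2285 with Skida1 deleted. The thinned cells that held any Meg3 had 1.87, 2.78 and 2.50 UMIs of it on average. UMIs of the same cell are not independent draws, so the counting intervals of Meg3 are too narrow.

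H19, the noncoding RNA across from Igf2, had 142 UMIs in Control (7.04 CPM [5.93–8.30]), 194 in MLL::ENL (9.79 CPM [8.46–11.3]) and 182 with Skida1 deleted (7.91 CPM [6.80–9.14]). The MLL::ENL level was 1.39-fold that of Control [1.11–1.74], below the 1.5-fold limit. Within called G1 cells it was 0.802-fold, with an interval that spanned 1 [0.612–1.06]. The ratio was above 1 in 15 of 17 alternative definitions, scalings and filters.

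Among the genes read from the father's copy, Dlk1 encodes a transmembrane protein with EGF-like repeats, related to Notch ligands and shed into the blood. It had 871 UMIs in Control (43.2 CPM [40.4–46.2]), 399 in MLL::ENL (20.1 CPM [18.2–22.2]) and 357 with Skida1 deleted (15.5 CPM [13.9–17.2]). It was thus 2.15-fold lower in MLL::ENL [1.90–2.42] and a further 1.30-fold lower with Skida1 deleted [1.12–1.501]. With stricter cell filters, which kept 445 Control cells in the class, the first difference was 3.35-fold. Of thinned cells, 11.5% [9.79–13.5], 6.74% [5.605–8.03] and 4.99% [4.13–5.97] held a Dlk1 UMI; unthinned, the shares were 39.5%, 16.4% and 12.3%. Among erythroid-like cells thinned alike, they were 1.14%, 0.378% and 0.114%, lower in each library but in the same order. Median depths before thinning were 15309, 10099 and 8819 UMIs in HSPC-like and 34598, 18194 and 27032.5 in erythroid-like cells, and the part of free RNA in the Dlk1 shares was not tested. Dlk1 was spread over more cells than Meg3: 129 Control cells held 50% or more of its UMIs.

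Igf2, the paternal growth factor that signals through the IGF1 receptor, was sparse, with 26, 81 and 48 UMIs (1.29 CPM [0.842–1.89], 4.09 [3.25–5.08] and 2.09 [1.54–2.77]). It stayed below the 5 CPM limit for a measured gene. By counts it was 3.17-fold higher in MLL::ENL than in Control [2.02–5.14] and 1.96-fold lower in the Skida1-deleted library than in MLL::ENL [1.35–2.86]. Peg3, a zinc finger regulator tied to growth and maternal care, had 44, 61 and 49 UMIs, and its ratio of MLL::ENL to Control was 1.41 [0.942–2.13]. Mest, a hydrolase-like protein of the endoplasmic reticulum, had 4, 1 and 3 UMIs, too few to compare. Plagl1, a zinc finger transcription factor that acts on other imprinted genes, had 18, 34 and 35 UMIs, at 1.92-fold in MLL::ENL over Control [1.06–3.61].

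Ndn encodes necdin, a growth suppressor known from quiescent stem cells. It had 196, 174 and 165 UMIs (9.72 CPM [8.41–11.2], 8.78 [7.52–10.2] and 7.17 [6.12–8.35]), and neighbouring libraries in this order overlapped in their intervals. Between the ends of this order, Ndn in the Skida1-deleted library was 0.738-fold that of Control [0.596–0.912], within the 1.5-fold limit. Grb10, a maternal adaptor protein that damps insulin and IGF receptor signals, had 290, 233 and 209 UMIs (14.4 CPM [12.8–16.1], 11.8 [10.3–13.4] and 9.08 [7.89–10.4]). It was 1.58-fold lower in the Skida1-deleted library than in Control [1.32–1.90]; this call ended under 10 of 17 alternatives, TMM scaling (a trimmed mean of the genes' log ratios; 0.677-fold) among them, and stricter cell filters turned it to 1.43-fold higher. Cdkn1c, the maternal cell cycle inhibitor p57, had 755, 848 and 875 UMIs (37.4 CPM [34.8–40.2], 42.8 [39.95–45.8] and 38.0 [35.5–40.6]) and stood at 1.14-fold [1.03–1.26] and 1.02-fold [0.920–1.12] of Control in the fusion libraries.

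Markers of other liver cell types were counted beside these results, since hepatoblasts and stroma also make Igf2, H19, Dlk1 and Meg3. Of 17 hepatocyte markers, 15 or 16 were detected in HSPC-like cells per library, with sums of 65.5 CPM in Control, 89.9 in MLL::ENL and 107 with Skida1 deleted; the transferrin gene Trf made up 45.1 to 46.2 CPM. Alb, the most specific of them, was at 0.545, 1.01 and 2.04 CPM and Afp at 5.45, 6.36 and 7.60 CPM, and Apob was at 0 in every library. Per UMI of Alb and Afp together, UMIs of Dlk1 were 7.20, 2.73 and 1.61 and those of Meg3 2.43, 6.45 and 3.86, in the order of the libraries above. The same ratio was 0.215, 0.555 and 0.216 for Igf2, where the Skida1-deleted value was close to that of Control, and 1.17, 1.33 and 0.820 for H19. Leaving out the 5% of each library's cells highest in hepatocyte markers gave 2.92-fold for Meg3, 3.01-fold for Igf2 and 0.468-fold for Dlk1 in MLL::ENL over Control. Free RNA of liver cells may enter every droplet, so this removal cannot show its part, which was not tested.

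Of 13 stromal markers 6 or 7 were detected, with sums of 21.8, 29.1 and 32.5 CPM, of which Pdgfrb made up 20.4, 26.0 and 30.8; Col3a1, Lum, Des, Lrat and Reln were at 0 in all 3 libraries. Of 12 endothelial markers 11 were detected, with sums of 448, 333 and 311 CPM that were mostly Egfl7, a gene blood progenitors also express, and Lyve1 was at 0. The sums of 12 macrophage markers were 9.82, 4.34 and 2.30 CPM. The part of endothelial, stromal and macrophage RNA in the members' differences was not tested.

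Across the lineages, Meg3, H19, Igf2 and Cdkn1c were highest in HSPC-like cells among the 5 classes, Dlk1 was spread more widely and Grb10 ran the other way. Meg3 had 0 to 69 UMIs and at most 3.09 CPM in any other class of any library. Against erythroid-like cells of its own library, Meg3 in HSPC-like cells was 221-fold higher in Control [111–517], 90.7-fold in MLL::ENL [71.0–118] and 355-fold with Skida1 deleted [206–669]. These ratios rest on 8, 69 and 13 erythroid-like UMIs of Meg3. Without the erythroid-like clusters of low depth, 7, 13 and 12 UMIs were left, at 0.0578, 0.112 and 0.0978 CPM. The lower ratio of MLL::ENL thus depended on those clusters. In other classes H19 reached at most 2.86 CPM, Igf2 0.723 CPM and Ndn 4.34 CPM. For Igf2 in Control the order was not resolved from counting error except against erythroid-like cells. The ratio of HSPC-like cells was 2.64 [0.661–22.9] over granulocyte progenitor-like, 1.78 [0.446–15.5] over megakaryocyte-like and 3.13 [0.515–128] over basophil-mast-like cells. Those classes held 2, 2 and 1 Igf2 UMIs. Markers of the classes were fixed without these genes, and the differences between classes are a description, not tested.

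**Figure D2:**
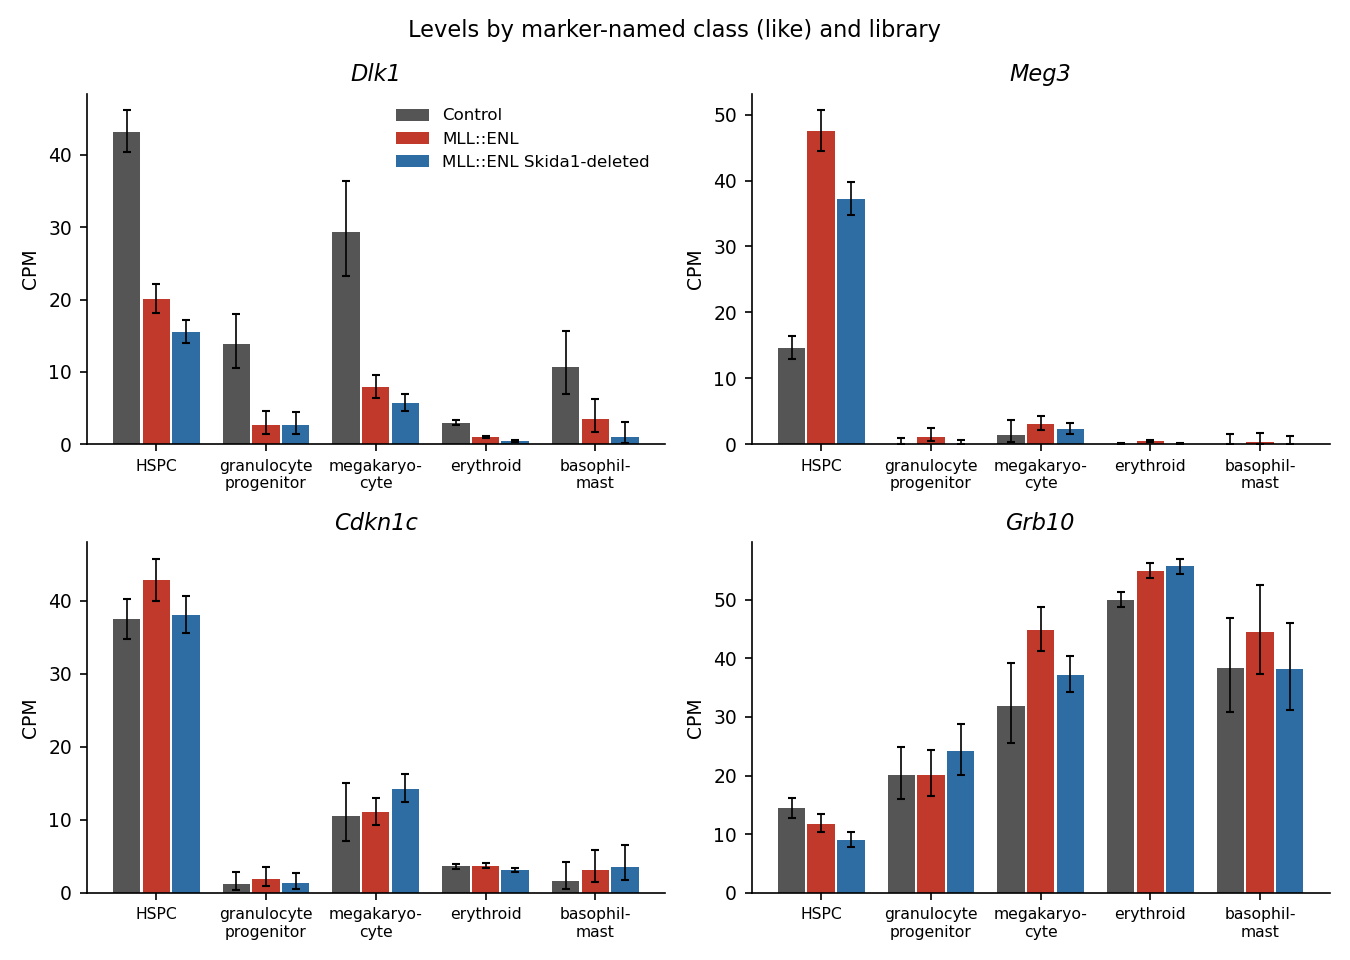
CPM of Dlk1, Meg3, Cdkn1c and Grb10 (1 panel each) in the 5 marker-named classes and 3 libraries, with 95% Poisson intervals that cover counting error only. Dlk1 is lower in MLL::ENL than in Control in each class, Meg3 is at most 3.09 CPM outside HSPC-like cells, and Grb10 is lowest in HSPC-like cells.

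Dlk1 was lower in MLL::ENL than in Control in all 5 classes. In Control its order was HSPC-like (43.2 CPM), megakaryocyte-like (29.3 CPM [23.3–36.4]), granulocyte progenitor-like (13.9 CPM [10.5–18.0]), basophil-mast-like (10.7 CPM [6.99–15.7]) and erythroid-like (2.97 CPM [2.67–3.29]), and the intervals of the third and the fourth overlapped. In MLL::ENL the levels were 7.92 CPM in megakaryocyte-like cells, 2.71 in granulocyte progenitor-like, 3.49 in basophil-mast-like and 0.964 in erythroid-like cells. Those are differences of 3.70-fold [2.73–5.01], 5.14-fold [2.83–9.99], 3.06-fold [1.46–6.87] and 3.08-fold [2.51–3.80] downward. UMIs of Dlk1 per UMI of Alb and Afp together were also taken, with the classes in the Control order above. They were 7.20, 9, 7.125, 5.2 and 5.81 in Control and 2.73, 1.96, 0.824, 2.2 and 0.992 in MLL::ENL. Some rest on few UMIs, such as 1 of Alb and 4 of Afp in basophil-mast-like cells of Control. The part of free liver RNA in the Dlk1 levels of these classes was not tested.

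Levels of Dlk1 in the Skida1-deleted library were lower again or close to MLL::ENL: 5.66 CPM in megakaryocyte-like cells, 2.67 in granulocyte progenitor-like, 1.07 in basophil-mast-like (3 UMIs) and 0.460 in erythroid-like cells. Of the 8558 genes measured in each of the 4 classes other than erythroid-like, where Dlk1 was under 5 CPM, 4.92% were at least 1.5-fold lower in MLL::ENL in all 4; this count was chosen after the values of Dlk1 were seen. Granulocyte progenitor-like clusters 27 and 28 held 61 and 59 cells, all of them MLL::ENL. Megakaryocyte-like cluster 7 held 8 Control cells of 1088, and without it the difference there was 0.355-fold [0.254–0.495]. Without the erythroid-like clusters of low depth, 1 of which held 2957 MLL::ENL cells, it was 0.257-fold [0.201–0.325] in that class. Under 8 other ways of naming the cells the erythroid-like ratio ran from 0.234 to 0.399 and that of granulocyte progenitor-like cells from 0.151 to 0.655.

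Grb10 was at 49.97 CPM [48.7–51.2] in erythroid-like cells of Control, 54.9 [53.7–56.2] in MLL::ENL and 55.7 [54.4–57.0] with Skida1 deleted. The next levels were in basophil-mast-like (38.3, 44.5 and 38.1 CPM) and megakaryocyte-like cells (31.8, 44.8 and 37.2 CPM), whose intervals overlapped in each library. Granulocyte progenitor-like cells had 20.03, 20.1 and 24.2 CPM. Erythroid-like cells thus held 3.47-fold [3.09–3.92], 4.67-fold [4.10–5.35] and 6.13-fold [5.34–7.07] the level of HSPC-like cells of the same library. In the megakaryocyte-like class MLL::ENL was 1.41-fold above Control [1.12–1.78], which was 1.08 [0.837–1.41] without cluster 7.

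Cdkn1c had 10.5, 11.01 and 14.2 CPM in megakaryocyte-like cells and 1.22 to 3.68 CPM in the remaining classes. Compared with erythroid-like cells, its level in HSPC-like cells was 10.4-fold higher in Control [9.19–11.7], 11.6-fold in MLL::ENL [10.4–13.02] and 12.1-fold with Skida1 deleted [10.8–13.7]. Ndn and Plagl1 also had their highest level outside HSPC-like cells in the megakaryocyte-like class, where Ndn had 4.34, 4.12 and 3.84 CPM and Plagl1 2.53, 2.85 and 3.25 CPM, for Plagl1 above its level in HSPC-like cells of each library. Without cluster 7 they were at 4.50, 5.70 and 5.14 CPM (Ndn) and 2.63, 5.55 and 5.48 CPM (Plagl1) there.

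Within HSPC-like cells the members differed in how far they followed the cell cycle. Phases were called from RNA of S and G2M genes, and cells called G1 made up 29.4% of the Control class [26.8–32.0], 55.4% in MLL::ENL [53.0–57.8] and 50.3% with Skida1 deleted [48.2–52.4]. Their median depth was 9604.5, 7377.5 and 6349 UMIs, below that of the S and G2M cells, and calls from RNA do not show whether a cell divides. Meg3 was at 57.1, 115 and 101 CPM in G1 cells and at 2.09 to 6.96 CPM in S and G2M cells. G1 cells held 69.7% of the Meg3 UMIs in Control, 92.5% in MLL::ENL and 93.2% with Skida1 deleted, where they held 17.8%, 38.2% and 34.2% of all UMIs of the class.

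**Figure D3:**
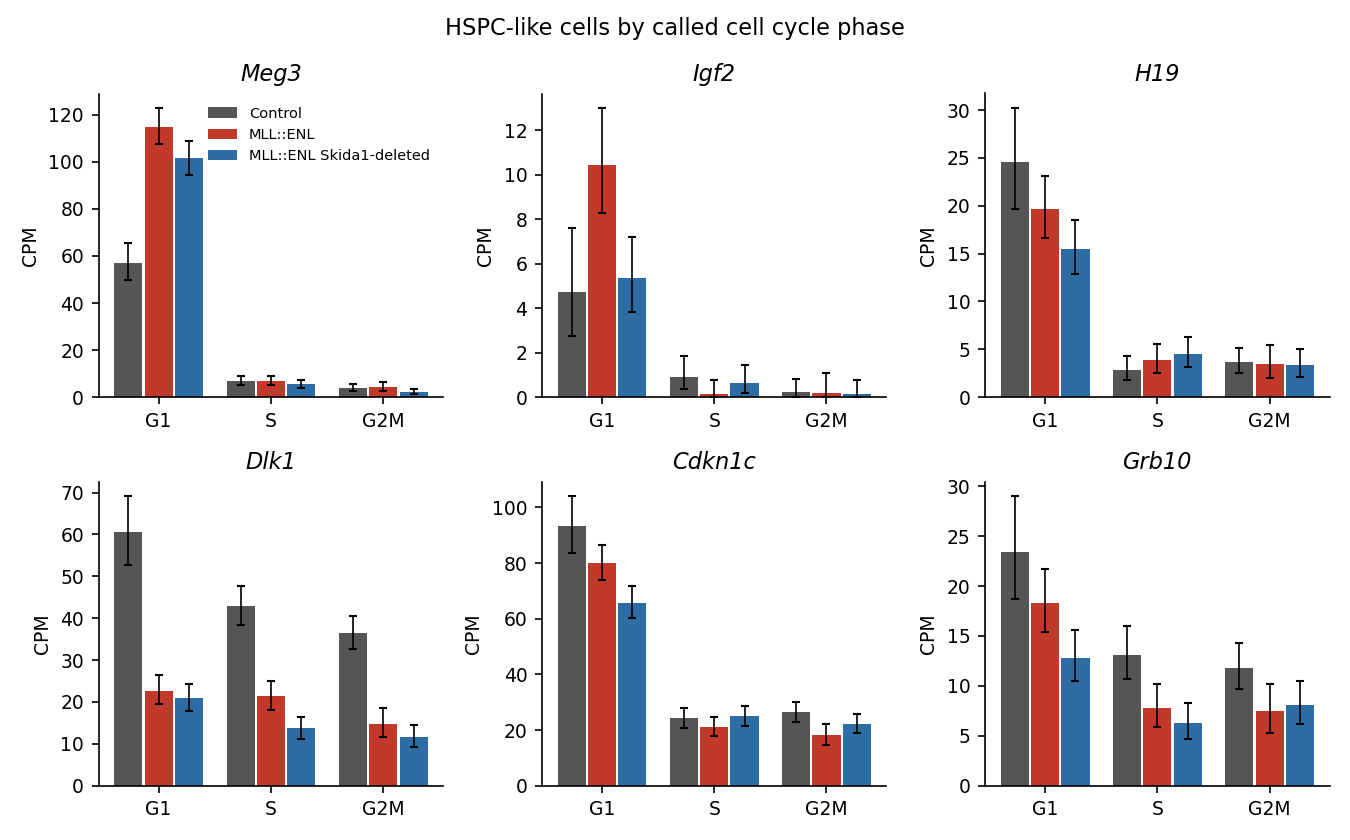
CPM of 6 members in HSPC-like cells called G1, S or G2M, by library, with 95% Poisson intervals that cover counting error only. Meg3, Igf2 and H19 are mostly in G1 cells, Cdkn1c and Grb10 are highest there, and Dlk1 in Control lies above both fusion libraries in every phase.

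Compared within G1 cells alone, Meg3 was 2.01-fold higher in MLL::ENL than in Control [1.73–2.35], a smaller difference than in the whole class; G1 cells were more frequent where Meg3 was higher. In S and G2M cells, where it was low, the ratios were 0.982 [0.651–1.48] and 1.11 [0.627–1.93]. Igf2 in G1 cells was 2.20-fold higher [1.29–3.97]. Dlk1 was lower in MLL::ENL in each phase, at 22.7 against 60.5 CPM in G1 (2.66-fold [2.17–3.27]), 21.3 against 42.9 in S and 14.8 against 36.4 in G2M. Within G1 cells Dlk1 in the Skida1-deleted library was at 20.8 CPM, and its interval around MLL::ENL spanned 1 (1.09-fold lower [0.874–1.36]). In S cells Dlk1 was at 13.7 CPM there, 1.56-fold lower than in MLL::ENL [1.21–2.02]. In G2M cells it was at 11.7 CPM, 1.26-fold lower with an interval that spanned 1 [0.913–1.74]. Cdkn1c in G1 cells ran from 93.4 in Control to 80.0 in MLL::ENL and 65.7 CPM with Skida1 deleted, so the order of the libraries differed from that in the whole class.

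The surface tags showed where in the class these RNAs lay. CD201 and Sca-1 are high, and CD48 is low, on the most immature stem cells of the mouse. In each library HSPC-like cells were ordered by a tag's raw count, and the 25% with the highest counts were set against the 25% with the lowest. From the lowest to the highest CD201 cells, Meg3 went from 0.786 to 61.4 CPM in Control (78.2-fold [33.1–243]), from 12.3 to 153 CPM in MLL::ENL (12.5-fold [10.0–15.7]) and from 4.68 to 131 CPM with Skida1 deleted (28.0-fold [20.4–39.5]). H19 was 41.8-fold [15.9–156], 9.95-fold [6.25–16.6] and 12.1-fold [7.25–21.3] higher between the same cells.

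CD48 ran the other way for these genes. Meg3 was 30.05-fold lower [18.4–52.5] in the cells highest in CD48 in Control, 52.5-fold lower [38.0–74.3] in MLL::ENL and 89.7-fold lower [56.3–152] with Skida1 deleted. Cdkn1c was 5.57-fold [4.56–6.83], 6.84-fold [5.63–8.34] and 5.03-fold lower [4.17–6.095], and Ndn 4.60-fold [3.15–6.82], 7.45-fold [4.72–12.1] and 9.39-fold lower [5.70–16.2]. Dlk1 moved least, at 1.42-fold [1.17–1.72], 1.46-fold [1.12–1.89] and 2.07-fold lower [1.57–2.74]. The CD48-high cells were also deeper, with medians of 21695, 16785 and 14248 UMIs against 9613, 6345 and 5637.5, and the part of depth was not tested.

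**Figure D4:**
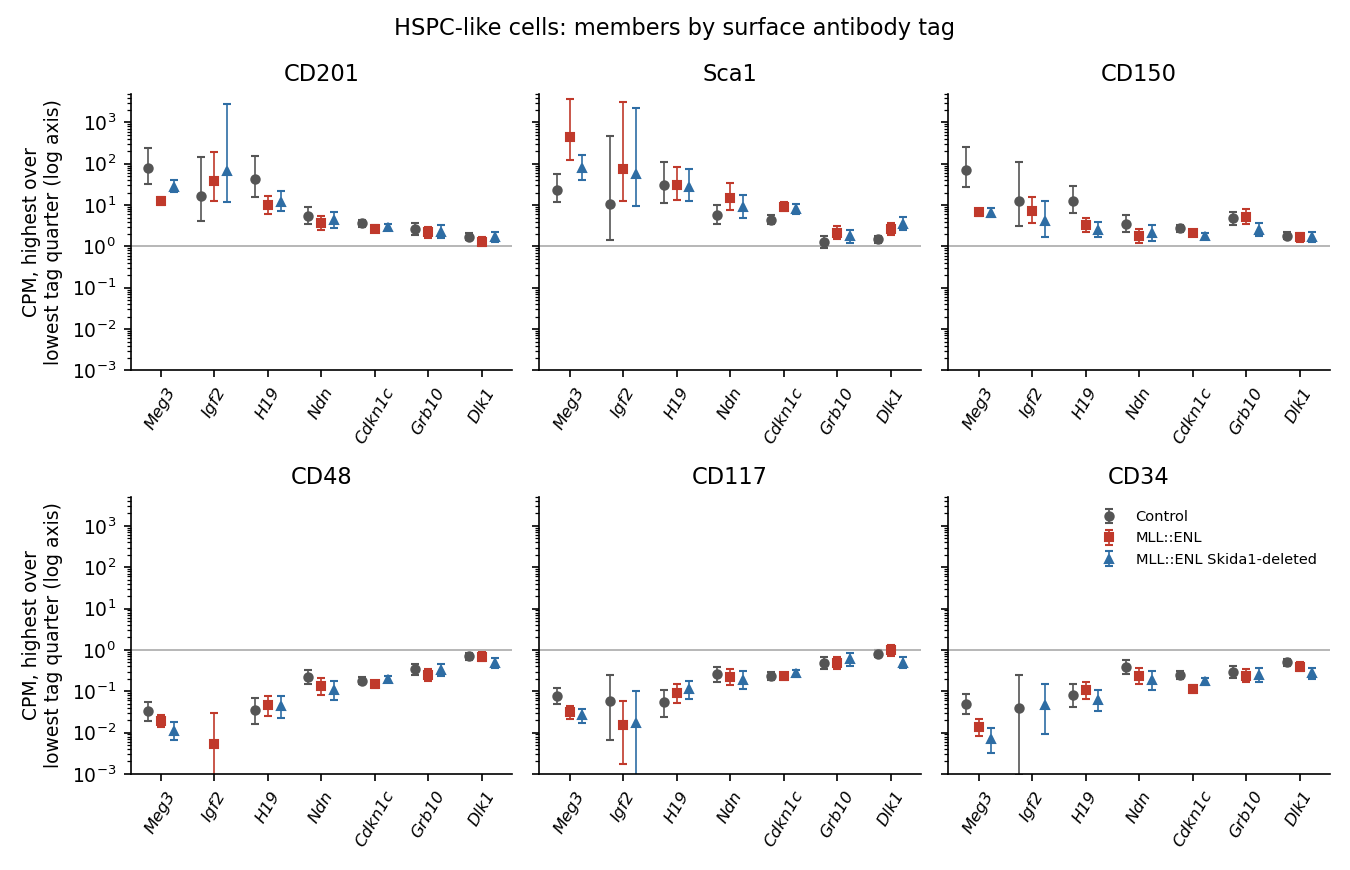
Ratio of CPM between the 25% of HSPC-like cells highest and the 25% lowest in each of 6 antibody tags, on a log axis, for 7 members and 3 libraries, with 95% intervals (cut at the plot's edge; no point where the highest cells had 0 UMIs). All ratios drawn lie above 1 for CD201, Sca1 and CD150 and below 1 for CD48, CD117 and CD34, and those of Dlk1 are nearest to 1 for most tags (0.977 for CD117 in MLL::ENL).

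Cells above the median of CD201 and below that of CD48, taken in each library on its own, were a like share of the class: 25.5% in Control, 25.9% in MLL::ENL and 22.5% with Skida1 deleted. In them Meg3 was at 73.1 CPM [64.5–82.7], 233 CPM [216–250.1] and 210.3 CPM [195–226], so MLL::ENL was 3.18-fold above Control [2.76–3.68]. Those cells held 87.1%, 79.8% and 83.4% of the class's Meg3 UMIs and 88.5%, 95.1% and 89.6% of its Igf2 UMIs. Dlk1 was at 64.0, 26.3 and 25.9 CPM in them, 2.43-fold lower in MLL::ENL [1.89–3.16] and 1.02-fold lower again with Skida1 deleted, with an interval that spanned 1 [0.744–1.38]. Cdkn1c was at 107, 114 and 94.9 CPM. This definition was chosen after the data were seen.

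Cluster 5, the HSPC-like cluster of both fusion libraries with the most RNA of the stem cell regulators Hlf and Mecom, held most of the Meg3. It had 197 CPM [184–211] in MLL::ENL and 181 CPM [169–194] with Skida1 deleted, against 1.16 to 5.10 CPM in clusters 3 and 10. H19 was at 33.1 and 27.9 CPM there, Igf2 at 17.2 and 9.24 CPM, Plagl1 at 6.63 and 6.76 CPM and Cdkn1c at 118 and 98.3 CPM. The Control cells of cluster 12 had 23.3 CPM of Meg3 [20.5–26.4] and those of cluster 18 had 3.56 [2.45–4.99]. Hlf was at 553 and 564 CPM in cluster 5 and at 196 and 156 CPM in clusters 12 and 18. The cluster with the most Meg3 thus also had the most Hlf, and the part of the mix of clusters in the difference between libraries was not tested.

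Members also met in the same cells. In thinned MLL::ENL cells of the class, 39 Igf2 UMIs lay in the 166 cells that held Meg3 and 4 in all others, a level 91.3-fold that of the other cells [32.9–352]. Those 39 UMIs came from 24 cells, so this interval is too narrow. In the Skida1-deleted library the counts were 20 and 4 (55.5-fold [18.6–223]) and in Control 3 and 5 (15.1-fold [2.35–77.7]). H19 was 21.5-fold [11.8–38.9], 11.7-fold [7.38–18.7] and 18.9-fold [11.5–31.6] higher in Meg3-holding cells, in the same order from Control. Rian, the noncoding RNA next to Meg3 (32215 bases away), was 54.8-fold [24.4–145] higher in such MLL::ENL cells and 46.0-fold [19.7–124] in Skida1-deleted cells; in Control it had 2 UMIs in cells with Meg3 and 5 in the others, a ratio of 10.1 with an interval that spanned 1 [0.960–61.6]. Dlk1, on the same chromosome as Meg3, was 2.41-fold [1.32–4.09], 1.80-fold [1.07–2.90] and 2.98-fold [1.84–4.68] higher in them, a smaller ratio than that of H19 on another chromosome. Hlf was 2.42-, 2.13- and 2.03-fold and Mecom 4.35-, 2.90- and 3.02-fold higher in the same cells.

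The other genes of imprinting and of the pathways these members act in were read from 4 lists. Of 48 other imprinted genes in the files, 22 were measured in HSPC-like cells of MLL::ENL and Control, 3 higher, 3 lower and 16 between (median log2 ratio -0.14). Over all genes measured the same way, 7.89% were higher and 15.7% lower. Higher were Rian (1.54 CPM in Control, 5.45 in MLL::ENL and 3.09 with Skida1 deleted; 3.54-fold [2.36–5.47]), Peg13 (20.1, 37.8 and 35.5 CPM), a noncoding RNA, and Zrsr1 (5.50 CPM in Control, 8.43 in MLL::ENL and 11.2 with Skida1 deleted), a splicing factor gene named after its values were seen. Inpp5f, a lipid phosphatase, was just within the limit (10.8, 16.1 and 13.6 CPM). Lower were Ppp1r9a (25.2, 14.6 and 15.5 CPM), Blcap (9.87, 6.105 and 6.34 CPM) and Tssc4 (63.1, 41.6 and 43.2 CPM). Between Skida1-deleted and MLL::ENL, 0 of 22 were higher and 1 was lower (Rian, 0.566-fold), against 1.71% and 1.29% of all genes measured.

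Of the list of IGF and insulin signalling and IGF2 mRNA-binding, 21 of 31 genes were measured and 5 were higher in MLL::ENL (median log2 ratio 0.16). Over all genes measured, 7.89% were higher. The lower side of this list is not reported here. The higher genes were Irs2, an adaptor of the insulin and IGF1 receptors (2.68, 10.7 and 10.99 CPM; 4.01-fold [2.96–5.52]), Lin28b, which blocks let-7 maturation (20.7, 55.3 and 81.7 CPM), and its target Hmga2 (268, 560 and 571 CPM). With them were the IGF2 mRNA-binding proteins Igf2bp2 (38.3, 76.2 and 76.7 CPM) and Igf2bp1 (3.37, 5.55 and 4.87 CPM). Igf1r, the receptor through which Igf2 signals, was at 79.1, 106 and 108 CPM, and Igf2r, which clears Igf2, at 9.32, 9.33 and 10.0 CPM, both within 1.5-fold. Between Skida1-deleted and MLL::ENL, 0 of 20 passed 1.5-fold, where 1.71% of all genes measured were higher and 1.29% lower.

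Among the G1 inhibitors, pocket proteins and D cyclins that act beside Cdkn1c, 11 of 14 were measured and 0 passed 1.5-fold in any of the 3 contrasts. The nearest was Ccnd1, cyclin D1 (54.9, 81.5 and 74.6 CPM; 1.49-fold [1.38–1.61]), and Cdk4 was at 425, 298 and 286 CPM. Beside these 11, 7.89% of all genes measured were higher and 15.7% lower in MLL::ENL than in Control. The shares were 1.71% and 1.29% for Skida1-deleted against MLL::ENL, and 9.6% and 19.1% for Skida1-deleted against Control. Of 20 genes of imprint maintenance and DNA methylation 17 were measured, 0 higher and 2 lower in MLL::ENL. Over all genes measured, 7.89% were higher and 15.7% lower. The 2 were the histone methyltransferase Setdb1 (47.4, 25.1 and 27.2 CPM, 1.89-fold lower [1.69–2.11]) and Smchd1 (173, 110 and 115 CPM, 1.58-fold lower [1.498–1.67]). Smchd1 is a chromatin protein needed at some imprinted clusters. Zfp57, which keeps imprints in the early embryo, had 21, 10 and 8 UMIs. None of these 17 passed 1.5-fold between Skida1-deleted and MLL::ENL, where 1.71% of all genes measured were higher and 1.29% lower.

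The genes with the most similar pattern over the 15 combinations of class and library were found by Pearson's r of log2(CPM + 1) among 7081 genes, for members with at least 20 CPM somewhere. The points share libraries and depth, and r is given as a description. For Meg3 they were Dcun1d1 (0.959), Emcn (0.947), Ncoa7 (0.944), BC005537 (0.944) and Sesn1 (0.941). Cdkn1c shared Dcun1d1 (0.960) and Sesn1 (0.948) with Meg3, and its others were Nkx2-3 (0.958), Smc1a (0.931) and Meg3 itself (0.929). Dlk1 was most like the class I gene H2-K1 (0.956), Efr3a (0.946), Acap2 (0.944), Ogfr (0.943) and Bod1 (0.943), and Grb10 most like the red cell adhesion gene Icam4 (0.924), Adk (0.918), Mylk3 (0.906), Smap1 (0.900) and Slc41a3 (0.899).

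The directions of Meg3, Dlk1 and Igf2 between MLL::ENL and Control were the same under each of 17 alternative definitions, scalings and filters. Meg3 ran from 2.01- to 4.29-fold, Igf2 from 2.20- to 4.08-fold, and Dlk1 from 0.299- to 0.530-fold. Between Skida1-deleted and MLL::ENL, Igf2 was at 0.332- to 0.560-fold and Dlk1 at 0.690- to 0.985-fold in all 17, and Meg3 was below 1 in 16 but 1.43-fold higher with the stricter cell filters.

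**Figure D5:**
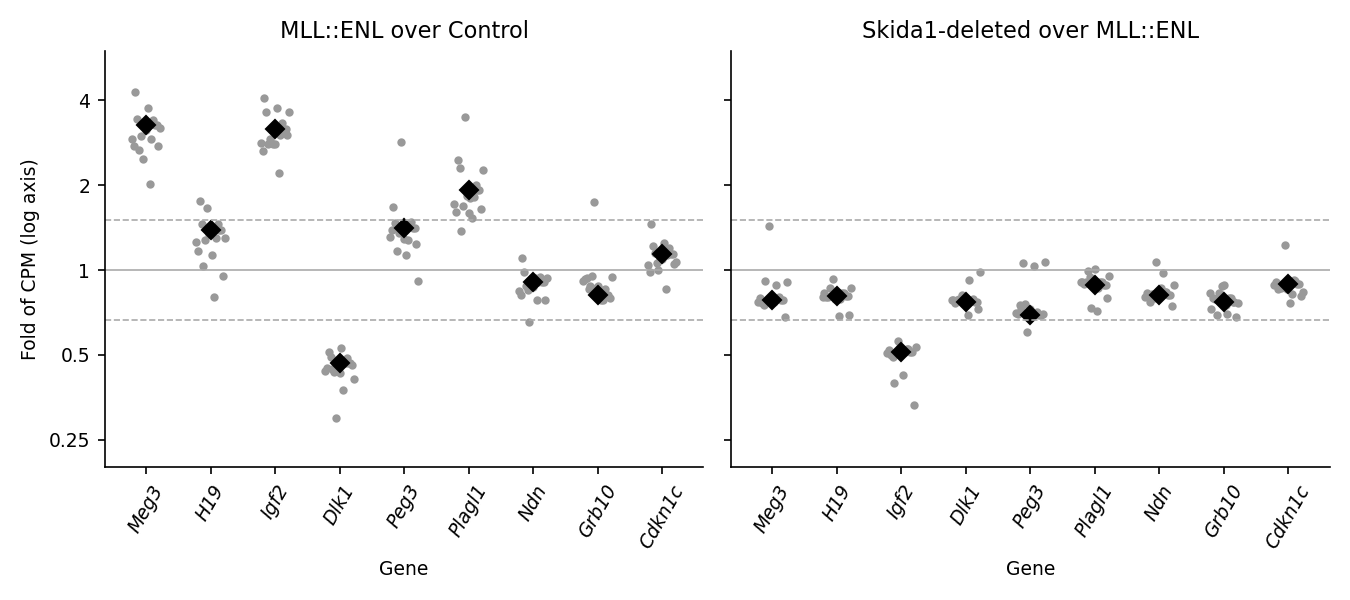
Ratio of CPM in HSPC-like cells on a log axis, MLL::ENL over Control (left) and Skida1-deleted over MLL::ENL (right), for 9 members; the diamond is the reported value, grey points are the 17 alternatives and dashed lines mark 1.5-fold. At left Meg3, Igf2 and Plagl1 stay above 1 and Dlk1 below it, whereas H19, Peg3, Ndn, Grb10 and Cdkn1c cross it; at right Igf2, Dlk1, H19 and Grb10 stay below 1.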

How the data were processed

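Per the labels' protocols, polyA RNA and antibody tags were captured with 10x Genomics single-cell 3′ chemistry. The authors deposited raw UMI counts per barcode (Cell Ranger 6.1.2 per the file headers; 6.0.1 and mm10 per the submitters' processing notes), with no normalization. Cells with at least 1000 UMIs, 500 genes and under 10% mitochondrial UMIs were kept, and Scrublet calls removed 383, 341 and 618 doublets. Clusters came from the Leiden method (resolution 1.0, 30 principal components of 2000 variable genes, 15 neighbours, no integration) and were named from 13 marker lists, with at least 3 markers among the top 50 genes. The named genes were all 10 members and up to 6 genes per list with the largest log2 ratio of MLL::ENL over Control; Igf1r, Igf2r, Zfp57 and Zrsr1 were added after their values were seen, as were the promoter motifs. A gene that this rule names is not reported here. Members, lists and alternatives were chosen with earlier results of these data known. The ratio intervals were run on simulated Poisson counts. Such counts follow the intervals' own assumption and hold no clumping of UMIs within cells. That run therefore cannot show how well the intervals cover the real counts. Barcode totals were 180656900, 198773992 and 207395090 UMIs. Tools were Python 3.11.15, scanpy 1.11.5, scipy 1.17.1 and leidenalg 0.10.2.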

Additional observations from a re-analysis of the deposited data

How the results depend on the processing

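Counts of members past 1.5-fold in HSPC-like cells were small and moved with the definition of the class. Members higher in MLL::ENL than in Control (1 as reported) numbered 3 with clusters made with the imprinted genes, without the filter on low values and in CD201-high CD48-low cells, and 2 with the marker score, the strict filter, thinning to 3000 UMIs, G1 cells and cells with an Hlf UMI. Members lower in that contrast (1) numbered 2 with the strict filter and without the filter on low values. Lower in Skida1-deleted than in MLL::ENL (0) was 1 with clusters made with the imprinted genes, the marker score, thinning, G1 cells, no filter on low values, cells with an Hlf UMI and CD201-high CD48-low cells; 1 was higher (0 as reported) with no filter on low values. Lower in Skida1-deleted than in Control (2) was 1 at resolutions 0.5 and 2.0, with the imprinted genes or without cell cycle genes in the clustering, with the nearest Control cells, the strict filter, no doublet removal, granulocyte progenitor-like cells added, TMM scaling and CD201-high CD48-low cells, and 4 with an Hlf UMI. Beside Dlk1 and Grb10, H19 was lower in G1 cells (0.632-fold) and Mest with no filter on low values (0.657-fold). Members higher in this contrast (1) numbered 3 with no filter on low values and in CD201-high CD48-low cells. Grb10 in the same contrast reversed with the strict filter (log2 ratio 0.49), where the class held 445, 1112 and 2763 cells. The Hlf, tag-defined and cluster-removal alternatives were chosen after the data were seen. Dlk1 was at least 1.5-fold lower in 5 of 5 classes as reported and under each of the 10 alternatives run for it. No paired analysis was possible because each group has 1 library. Depth limits Igf2, Mest, Peg3 and Plagl1, at under 5 CPM in every library, where ratios of 1.5 were not always resolved from 1. The causes of these shifts were not tested.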
